A study of Mus musculus with 28 samples.

Results

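Thrsp, Hr and Klf9 are genes that thyroid hormone is known to switch on, and their signals were read here in mouse hearts with and without a receptor mutation. All probe sets annotated to these genes alone were taken, for 3 of the 18193 genes so read, which gave 12 of the 45037 probe sets that were not array controls. They comprised 3 for Thrsp, 2 for Hr and 7 for Klf9. Total RNA from frozen heart tissue was hybridised to 1 array per animal. The 28 arrays formed 4 groups of 7, namely del337TR animals given WY14643, untreated del337TR animals, control animals given WY14643 and untreated control animals. The del337TR strain carries a receptor deletion and stands for resistance to thyroid hormone, and WY14643 is an activator of the nuclear receptor PPARalpha. The sources used here do not give the receptor gene, the number of mutant copies, the strain background, the age or sex of the animals, or the dose and duration of WY14643. The tissue was labelled as heart without a chamber. Signals are on a linear scale in arbitrary units, with errors given as SD. Differences are on the log2 scale with the SE of limma, a linear model fitted to all probe sets, and p-values were adjusted over all of them.

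Thyroid hormone receptors sit on DNA together with the retinoid X receptor, recruit corepressors when no hormone is bound, and exchange them for coactivators when it binds. A receptor that cannot bind hormone stays with the corepressors and blocks the normal receptor beside it. PPARalpha, which drives fatty acid use in heart and liver, pairs with the same retinoid X receptor. Thrsp, also called Spot 14, is a small protein that promotes fatty acid synthesis in liver, fat and mammary gland. Hr, the hairless protein, is a nuclear corepressor that binds thyroid hormone receptors and is needed for hair growth. Klf9 is a zinc finger transcription factor of the Krüppel-like family that is induced by thyroid hormone and by glucocorticoids.

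Several measurements of the arrays touch the results that follow. Array medians ran from 60 to 77.8, and no array pair of 378 held identical values. The tissue label was set against 8 cardiomyocyte genes, whose summed signal ran from 95837.6 to 155509.8 in treated del337TR hearts, from 96728 to 123302.5 in untreated del337TR hearts, from 107896.7 to 137675.2 in treated controls and from 92632.6 to 127792.1 in untreated controls. The summed signal of 9 adipocyte markers ran from 9933.8 to 15851.6, from 10672.9 to 13698.7, from 9939.4 to 13914.7 and from 10391.3 to 14270.8 in the same order of groups, and no marker was at 0 in any group. Most of the adipocyte sum was Fabp4, with a median signal of 8998.75 over the arrays. Xist and Eif2s3y, which mark the sexes, gave 1 female of 7 in treated del337TR hearts, 4 in untreated del337TR hearts, 3 in treated controls and 2 in untreated controls. For female minus male hearts 0 of the 12 probe sets passed limma's test, with adjusted p-values from 0.957 up, where 0.0777% of all probe sets passed. At an unadjusted p under 0.05 there were also 0 of 12, where 5.22% of all probe sets stood. In samples of whole tissue, fewer cells of a type and less RNA per cell cannot be told apart.

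Thrsp was read by the probe set 1424737_at, which had the highest mean signal of the 3 and stands for the gene. Its signals ran from 427.9 through a median of 703.2 to 846.1 in treated del337TR hearts and from 565.2 through 742.2 to 826 in untreated del337TR hearts. They ran from 695.6 through 1261.4 to 1970.1 in treated controls and from 664.7 through 829 to 1383.6 in untreated controls. The treated controls thus held the highest Thrsp signals and by far the widest spread, and the groups overlapped in each comparison. Means were 653 ± 152 (SD, n = 7) in treated del337TR hearts, 721 ± 87.6 in untreated del337TR hearts, 1263 ± 514 in treated controls and 869 ± 242 in untreated controls. Treated controls stood highest in this order, followed by untreated controls, untreated del337TR and treated del337TR hearts. No pair of neighbours in the order passed limma's test, with limma adjusted p-values of 0.735, 0.999 and 0.968 from the top down. The log2 difference of the top pair, treated minus untreated controls, was 0.47 ± 0.22 (SE). The second Thrsp probe set, 1422973_a_at, averaged 334 ± 53.6 in treated del337TR hearts, 315 ± 35.4 in untreated del337TR hearts, 497 ± 213 in treated controls and 402 ± 117 in untreated controls. Over the 28 arrays it moved with the first at r = 0.90, where r is Pearson's correlation of log2 signals after each group's mean was removed. The third, 1444166_at, was dim, with signals from 8.3 to 106.4, and correlated with the others at only 0.15 and 0.18.

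Hr was read by 1435950_at, with signals of the same order as the array medians, and the values read carried no call of presence. Its signals ran from 43.8 through a median of 80.8 to 140.8 in treated del337TR hearts and from 60.3 through 90.9 to 156.4 in untreated del337TR hearts. They ran from 85.6 through 172.8 to 194.3 in treated controls and from 34.7 through 106.4 to 165.3 in untreated controls. Means were 84.2 ± 32.3 in treated del337TR hearts, 95.5 ± 32.2 in untreated del337TR hearts, 148 ± 46.0 in treated controls and 101 ± 40.2 in untreated controls. Hr therefore stood in the same order of groups as Thrsp. Again no pair of neighbours passed limma's test (limma adjusted p-values of 0.740, 0.999 and 0.971 from the top down). The log2 difference of the top pair in this order was 0.61 ± 0.30 (SE). The other Hr probe set, 1422110_at, did not share this order. It averaged 99.0 ± 35.8 in treated del337TR hearts, 103 ± 14.6 in untreated del337TR hearts, 107 ± 36.6 in treated controls and 68.1 ± 24.8 in untreated controls. The Hr probe sets correlated with each other at r = -0.18 over the 28 arrays, and values of Hr are therefore given by probe set. A single value of Hr without a named probe set is from 1435950_at.

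Klf9 was read by 1428288_at, again the probe set of the gene with the highest mean. Its signals ran from 3425 through a median of 3922.4 to 5154.3 in treated del337TR hearts and from 3022.3 through 4556.7 to 5212.5 in untreated del337TR hearts. They ran from 4320.1 through 4696.3 to 5342.3 in treated controls and from 3458.7 through 3841.8 to 4457.3 in untreated controls. Klf9 varied less than the other genes, with a highest signal 1.77 times the lowest over all arrays, where this ratio was 4.60 for Thrsp and 5.60 for Hr. Means were 4150 ± 634 in treated del337TR hearts, 4377 ± 681 in untreated del337TR hearts, 4758 ± 366 in treated controls and 3936 ± 375 in untreated controls. The order of Klf9 levels differed from that of Thrsp and Hr in that untreated controls came last, and the ranges of neighbouring groups overlapped. Among the other Klf9 probe sets, 1428289_at and 1456341_a_at correlated with the first at 0.78 and 0.73 and with each other at 0.81. The dimmest, 1452723_at, ran from 20.3 to 75.6 and lay between -0.30 and 0.01 with the other Klf9 probe sets.

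**Figure D1:**
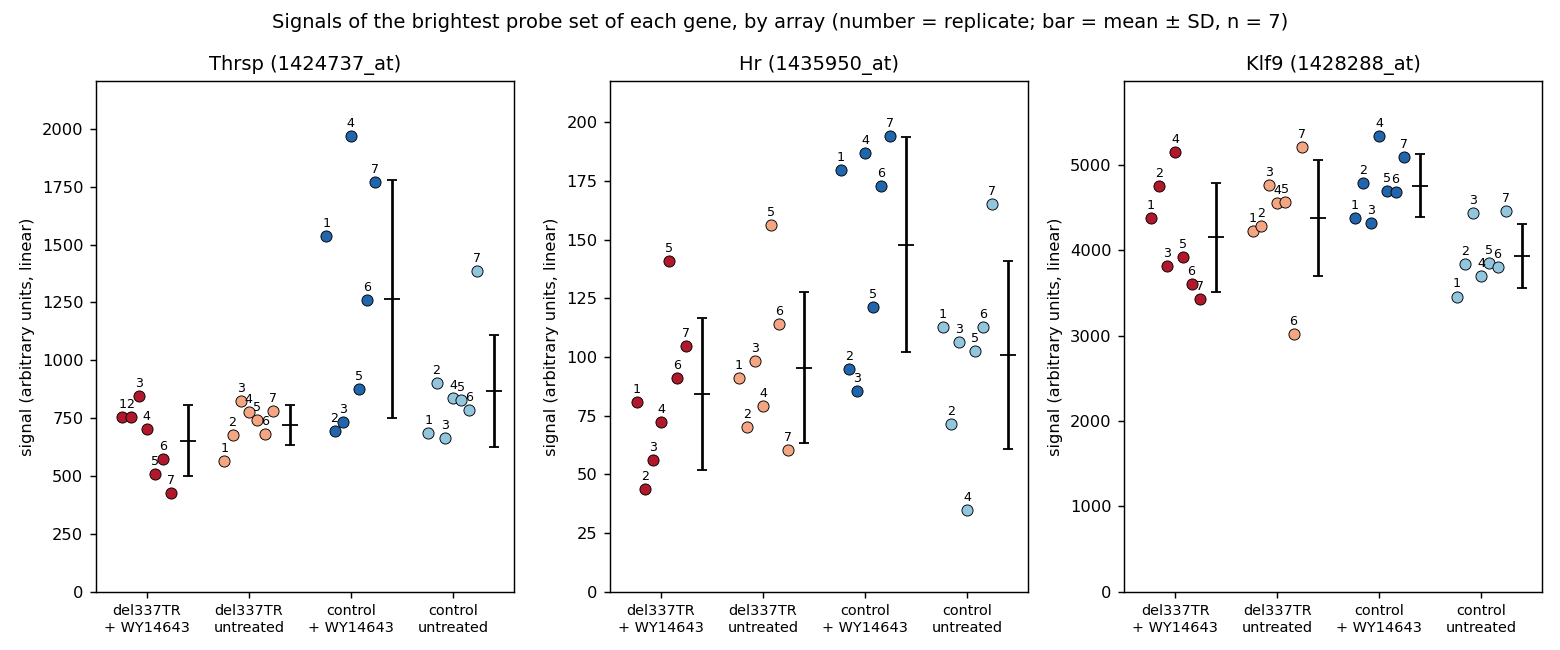
Linear signals of the probe set that stands for each gene, with 1 point per array, its replicate number beside it, and bars of mean ± SD (n = 7) per group. Replicates 1, 4, 6 and 7 of the treated controls lie above replicates 2, 3 and 5 for both Thrsp and Hr, and Klf9 runs from 3022.3 to 5342.3 over all arrays.

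**Figure D2:**
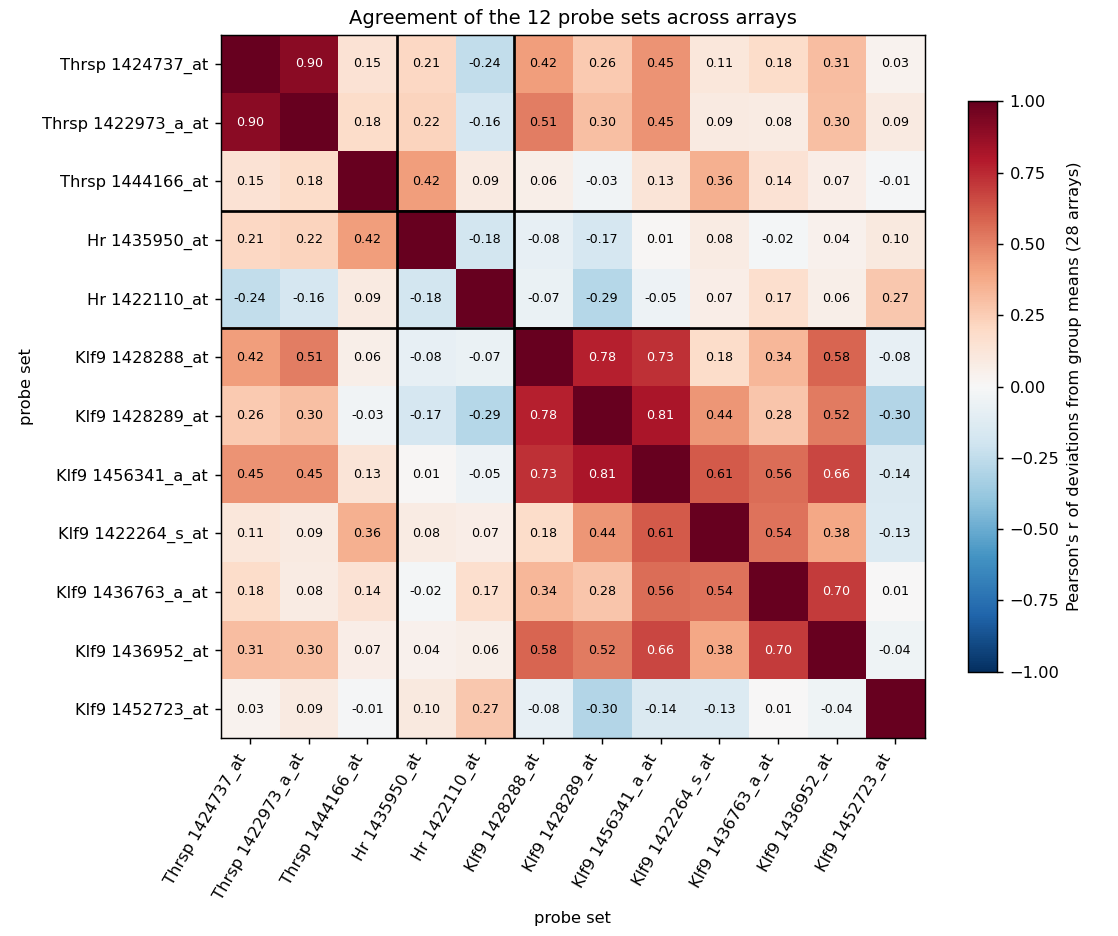
Pearson's r between the 12 probe sets over the 28 arrays, from log2 signals with group means removed, with black lines between the genes. The pair of bright Thrsp probe sets reaches 0.90 and 3 bright Klf9 probe sets lie between 0.73 and 0.81, whereas the pair for Hr stands at -0.18.

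Untreated del337TR hearts were compared with untreated control hearts. The strain background was not given and the groups differed in their number of females, so the mutation cannot be told apart from these. None of the 12 probe sets passed limma's test, in which 0.00222% of all probe sets passed. At an unadjusted p under 0.05 there was 1 of 12, where 4.01% of all probe sets stood. The median difference of the 12 was -0.04, and that of all probe sets was -0.01. Thrsp stood at -0.24 ± 0.22 (SE, adjusted p = 0.999), with all 7 del337TR hearts below the control median. Hr stood at -0.02 ± 0.30 on 1435950_at and at 0.68 ± 0.29 on 1422110_at, where all 7 del337TR hearts lay above the control median and the unadjusted p was 0.028 (limma adjusted p = 0.999). Klf9 stood at 0.14 ± 0.11 (limma adjusted p = 0.999), with 6 of 7 del337TR hearts above the control median. All 6 atrial markers stood higher in del337TR here (median 1.30) and 7 of 8 fibroblast markers did (median 0.14), where 50.3% of all genes did. Of these 14 markers 0 passed limma's test and 2, both of fibroblasts, had an unadjusted p under 0.05, and their part in the values of the 3 genes was not tested. The sign of the Hr value on 1435950_at turned when any of 8 single arrays was left out, and it ranged from -0.25 to 0.12 over these fits.

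In control animals, WY14643 hearts were set against untreated hearts. No probe set of the 12 passed limma's test, and 0% of all probe sets did. At an unadjusted p under 0.05 there were 5 of 12, all higher with WY14643, where 6.75% of all probe sets stood in either direction and 2.39% stood higher. The median difference was 0.24, and -0.03 over all probe sets. Klf9 stood at 0.28 ± 0.11 (SE, unadjusted p = 0.0171, limma adjusted p = 0.698). All 7 treated hearts lay above the untreated median for Klf9 and 5 lay above the highest untreated heart. The dim Klf9 probe set 1452723_at stood at 0.49 ± 0.24, also with 7 of 7 treated hearts above the untreated median. It correlated with 1428288_at at only -0.08 over the 28 arrays. The remaining Klf9 probe sets had no unadjusted p under 0.05. They stood at 0.25 ± 0.13 on 1428289_at, 0.18 ± 0.14 on 1456341_a_at, 0.18 ± 0.14 on 1436952_at, 0.03 ± 0.19 on 1436763_a_at and 0.02 ± 0.16 on 1422264_s_at. Thrsp stood at 0.47 ± 0.22 (unadjusted p = 0.0392, limma adjusted p = 0.735) with 5 of 7 treated hearts above the untreated median, and the second Thrsp probe set at 0.24 ± 0.21. Treated replicates 1, 4, 6 and 7 had Thrsp signals from 1261.4 to 1970.1. Treated replicates 2, 3 and 5 ran from 695.6 to 877.5, where the untreated median was 829. Hr was alike on its probe sets here, at 0.61 ± 0.30 on 1435950_at and 0.64 ± 0.29 on 1422110_at (limma adjusted p-values of 0.740 and 0.735). The dim Thrsp probe set stood the other way at -0.83 ± 0.45. The actin control ratio of the arrays, a sign of RNA integrity, was also highest in the treated controls, and with it as a covariate the differences were 0.25 ± 0.20 for Thrsp, 0.42 ± 0.30 for Hr and 0.19 ± 0.11 for Klf9.

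In del337TR animals the same treatment gave 1 of 12 probe sets at an unadjusted p under 0.05, where 5.78% of all probe sets stood, and 0 of 12 past limma's test, as for 0% of all. That probe set was the dim 1444166_at of Thrsp, at 1.04 ± 0.45 (SE, unadjusted p = 0.0286, limma adjusted p = 0.839). The bright probe sets of Thrsp stood at -0.17 ± 0.22 and 0.08 ± 0.21. Hr stood at -0.21 ± 0.30 and -0.16 ± 0.29, and Klf9 at -0.07 ± 0.11 on 1428288_at. The median over the 12 was 0.08, and 0.02 over all probe sets. Of the 9 adipocyte markers 0 passed limma's test and the median was -0.35. At an unadjusted p under 0.05 there were 5 of 9, which were Adipoq, Retn, Cidec, Car3 and Lipe, all lower with WY14643, while Lep (0.04), Fabp4 (0.01) and Cidea (0.04) stood near 0 and Ucp1 at -0.15. A score of Adipoq, Retn and Cidec, which are 3 of those 5, as their mean log2 signal, averaged 4.57 ± 0.58 (SD, n = 7) in treated and 6.06 ± 0.40 in untreated del337TR hearts. With this score as a covariate the differences were 0.02 for Thrsp, 0.15 for Hr and 0.05 for Klf9, all of turned sign and smaller than their SE. These values rest on the 3 genes of the score and not on the whole marker list. Summed signals of that list overlapped between the groups, but most of the sum was Fabp4, with a median signal of 8998.75 over the arrays. Adipoq, Retn and Cidec had medians of 60.85, 100.65 and 21.15, so the sum says little of them.

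Under WY14643, del337TR hearts were compared with control hearts. Thrsp stood at -0.88 ± 0.22 (SE, unadjusted p = 0.000398, limma adjusted p = 0.403), a mean signal of 653 in treated del337TR hearts and 1263 in treated controls. All 7 del337TR hearts lay below the control median for Thrsp, and 3 lay below the lowest control. The controls were not alike, as replicates 1, 4, 6 and 7 had Thrsp signals from 1261.4 to 1970.1. Control replicates 2, 3 and 5 ran from 695.6 to 877.5, where del337TR hearts reached 846.1. The second Thrsp probe set stood at -0.47 ± 0.21 (unadjusted p = 0.0342, limma adjusted p = 0.526). Hr stood at -0.84 ± 0.30 on 1435950_at (unadjusted p = 0.00905, limma adjusted p = 0.436), with 4 del337TR hearts below the lowest control, and at -0.13 ± 0.29 on 1422110_at. Klf9 stood at -0.21 ± 0.11 (unadjusted p = 0.0657, limma adjusted p = 0.596). Of the 12 probe sets 0 passed limma's test, as did 0% of all, and 4 had an unadjusted p under 0.05, where 8.86% of all probe sets stood. Of those 4, 3 were lower in del337TR, as were 3.61% of all, and the dim Thrsp probe set was higher at 1.24 ± 0.45, as were 5.25%. The median over the 12 was -0.13, and 0.04 over all probe sets. As a mean of its 3 probe sets Thrsp stood at -0.04 ± 0.22. With the actin ratio as a covariate Thrsp stood at -0.61 ± 0.20 and Hr at -0.60 ± 0.31, and with the adipocyte score at -0.74 ± 0.27 and -0.57 ± 0.36. Markers of other cells were read in the same comparison. Of 9 adipocyte markers 7 stood lower in del337TR (median -0.36), and 4, all lower, had an unadjusted p under 0.05. Of 8 skeletal muscle markers 6 stood higher (median 0.41), and 2, both higher, had such a p. In these adipocyte and skeletal muscle lists 0 passed limma's test. All 6 atrial markers stood higher in del337TR (median 0.90) and all 8 fibroblast markers did (median 0.22), where 53.6% of all genes did. Of these 14 markers 0 passed limma's test and 1, Nppa (0.89 ± 0.30), had an unadjusted p under 0.05. The summed atrial signal ran from 9464.1 to 54402.9 in treated del337TR hearts and from 3776.2 to 32408 in treated controls, the summed fibroblast signal from 19450.3 to 23837.9 and from 17055 to 22462.5 in the same order, and no marker was at 0. Fibroblast markers had a median r of -0.27 with Thrsp over the 28 arrays after group means were removed, 0 of 8 positive, and of -0.04 without the treated controls, 2 of 8 positive. Over the 28 arrays 51.1% of all genes correlated positively with Thrsp. The part of the adipocyte, skeletal muscle, atrial and fibroblast markers in the result was not tested. The comparison of del337TR with control under WY14643 shares the treated controls with the one of WY14643 in control animals, so the values of both move with the same 7 arrays.

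Whether the treatment acted differently in the strains was asked by the WY14643 effect in del337TR less that in controls. This difference was -0.64 ± 0.31 (SE) for Thrsp, -0.82 ± 0.42 and -0.81 ± 0.41 for the Hr probe sets and -0.35 ± 0.15 for Klf9. Unadjusted p-values were 0.0466, 0.0609, 0.0622 and 0.0308 in that order, and limma adjusted p-values were 0.956 for each. In this fit 3 of 12 probe sets had an unadjusted p under 0.05, where 4.9% of all stood, and 0 of 12 passed the adjusted test, as for 0% of all. The dim Thrsp probe set stood at 1.88 ± 0.64, opposite to the bright ones. The response of Thrsp, Hr or Klf9 was therefore not shown to differ between the strains at 7 arrays a group.

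**Figure D3:**
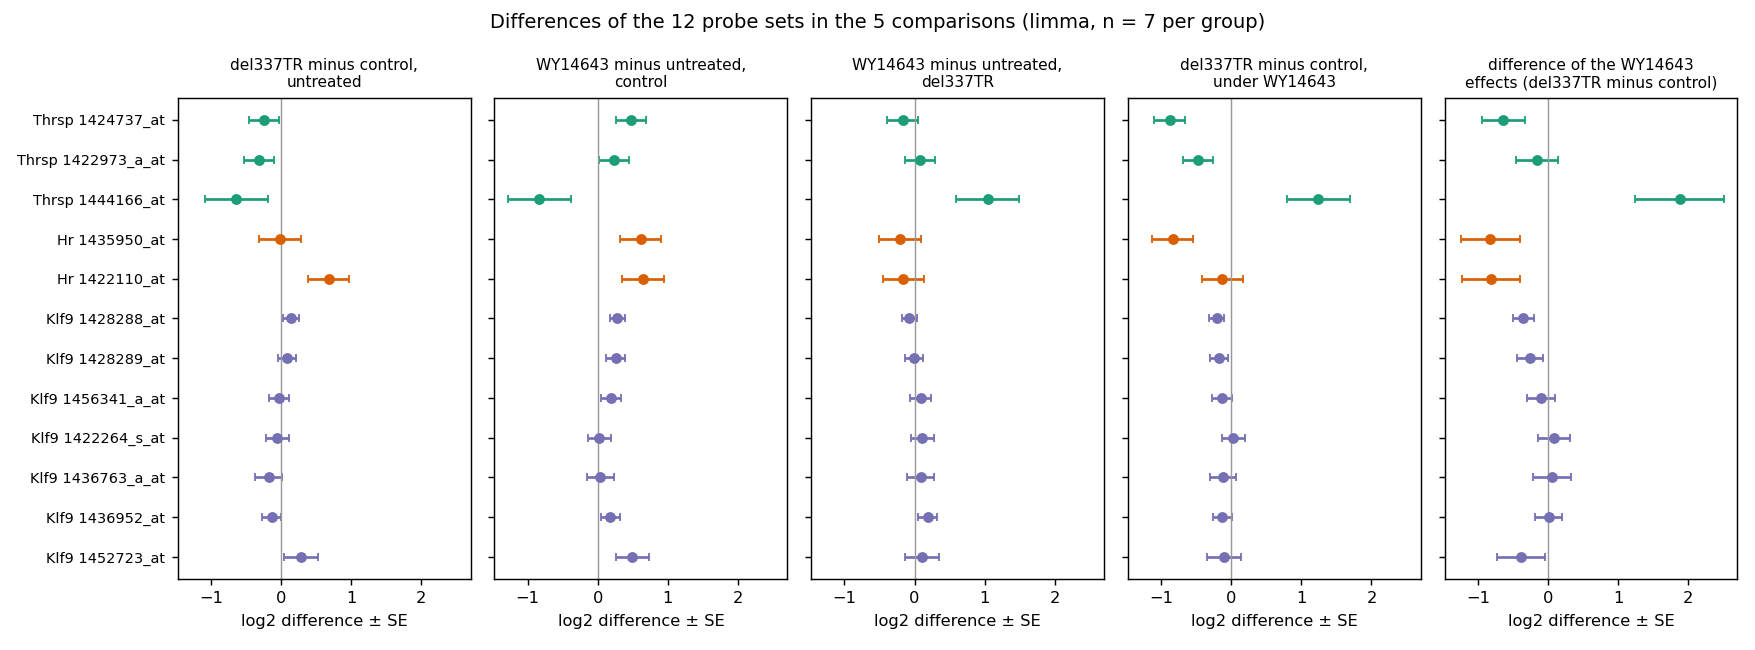
Log2 differences ± SE (limma, n = 7 per group) of the 12 probe sets in the 5 comparisons, with colours for the genes. The bright Thrsp probe sets and Hr 1435950_at lie below 0 in del337TR against control under WY14643, at -0.88, -0.47 and -0.84, and the dim Thrsp probe set 1444166_at lies at 1.24.

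The genes were then related to each other array by array, as deviations from the mean of each array's own group. Thrsp and Klf9 varied together over the 28 arrays, with r = 0.42 (two-sided permutation within groups, p = 0.00833, adjusted over the 3 pairs p = 0.025) and Spearman's rho = 0.48 (adjusted permutation p = 0.0365). Within groups their r was 0.60 in treated del337TR hearts, 0.46 in untreated del337TR hearts, 0.56 in treated controls and 0.45 in untreated controls, all above 0. None of these passed an exact permutation test alone (adjusted p = 0.468 for each, n = 7). Without the 2 arrays farthest from the Thrsp median r was 0.34 (permutation p = 0.051), so the call rests in part on those arrays. It was also lost without untreated control replicate 7 (r = 0.37), treated control replicate 3 (0.39) or 4 (0.37), or treated del337TR replicate 7 (0.35), at adjusted permutation p-values between 0.0520 and 0.0775, and with the mean of each gene's probe sets in place of the brightest (r = 0.34). Removing the mean of each replicate number lost the call too, as given at the end.

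The log2 ratio of the 3' to the 5' actin control probe sets went with both genes, at r = 0.55 and rho = 0.44 with Thrsp and r = 0.43 and rho = 0.54 with Klf9 (adjusted permutation p for r 0.0523 each). Without the 2 farthest arrays these r were 0.32 and 0.42. After the ratio was removed as a covariate, r between Thrsp and Klf9 was 0.24 (permutation p = 0.207). The ratio averaged 0.29 ± 0.11 (SD, n = 7) in treated del337TR hearts, 0.36 ± 0.09 in untreated del337TR hearts, 0.46 ± 0.20 in treated controls and 0.32 ± 0.13 in untreated controls. Klf9 probe sets other than 1428288_at correlated with Thrsp between 0.03 and 0.45, and 1456341_a_at stood at the upper end.

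Thrsp and Hr did not vary together over all arrays, with r = 0.21 (adjusted permutation p = 0.454) and rho = 0.18 (adjusted permutation p = 0.619). Without the treated controls r was -0.18 (permutation p = 0.472). Hr and Klf9 stood at r = -0.08 and rho = -0.09 (adjusted permutation p = 0.680 and 0.657). Within the groups Thrsp and Hr took values of either sign. In the treated controls r was 0.96 (exact permutation p = 0.00238, adjusted over 12 tests p = 0.0286, n = 7) and rho was 0.93 (adjusted exact p = 0.081). In treated del337TR hearts r was -0.80 (exact permutation p = 0.0278, adjusted p = 0.167) and rho was -0.79. In untreated del337TR hearts r was -0.05, and in untreated controls it was 0.26. A difference between these correlations was not tested. In treated del337TR hearts the second Thrsp probe set stood at r = -0.84 with Hr 1435950_at. With the other Hr probe set, 1422110_at, Thrsp stood there at r = -0.02 and the second Thrsp probe set at 0.24 (rho = 0.82). The negative relation was thus seen on only 1 of the 2 Hr probe sets.

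The arrays behind the value in the treated controls can be read by their order. Replicates 1, 4, 6 and 7 had Hr signals of 179.7, 186.8, 172.8 and 194.3, and replicates 2, 3 and 5 had 95.1, 85.6 and 121.3. Thrsp divided the same replicates, as its signals ran from 1261.4 to 1970.1 in replicates 1, 4, 6 and 7 and from 695.6 to 877.5 in replicates 2, 3 and 5. The gap between them took 34.9% of the range of log2 signals for Thrsp and 43.2% for Hr. Gaps of this size were common. The largest gap within each other group took 29.7% to 58.2% of the range for Thrsp and 25.5% to 46.4% for Hr. Those gaps set 1 array apart from 6, except for Thrsp in treated del337TR hearts, where 3 lay below and 4 above. The size of the gap therefore did not settle whether the treated controls stood in separate sets. The same replicates divided for Myh7 and Nppa, which are taken up below. Log2 signals in replicates 1, 4, 6 and 7 ran from 11.94 to 12.55 for Myh7 and from 11.47 to 12.20 for Nppa. In replicates 2, 3 and 5 they ran from 14.11 to 14.20 and from 13.54 to 13.81. The second Thrsp probe set gave r = 0.94 with Hr 1435950_at in the treated controls (exact permutation, adjusted over 16 tests p = 0.0317). The other Hr probe set, 1422110_at, stood at r = -0.39 with Thrsp in the same arrays (adjusted exact p = 0.828), so the relation was seen on 1 of the 2 Hr probe sets.

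Thrsp and Hr were also set against the beta myosin heavy chain Myh7, a slow isoform that thyroid hormone represses, and Nppa, the atrial natriuretic peptide. Over the 28 arrays r with Myh7 was -0.72 for Thrsp (permutation p = 0.00341) and -0.57 for Hr (p = 0.00892), and r with Nppa was -0.59 for Thrsp (p = 0.0287) and -0.44 for Hr (p = 0.0131). Of the 24 relations tested to 8 array measures 0 passed the adjustment by r, where the lowest adjusted permutation p was 0.0523. By rho the relation of Hr to Myh7 passed, at -0.63 (adjusted permutation p = 0.0238), and that of Thrsp to Myh7 stood at -0.53 (adjusted permutation p = 0.113). Without the 2 farthest arrays r with Myh7 was -0.71 for Thrsp (permutation p = 0.0655) and -0.49 for Hr (p = 0.0120). Within groups r of Thrsp with Myh7 was 0.38 in treated del337TR hearts, 0.54 in untreated del337TR hearts, -0.91 in treated controls and -0.93 in untreated controls, so its sign was positive in both del337TR groups. That of Hr with Myh7 was -0.57, -0.05, -0.93 and -0.53 in the same order of groups. Among untreated controls replicate 7 stood apart, with log2 signals of 11.60 for Myh7 and 10.43 for Thrsp. The others ran from 13.83 to 14.36 and from 9.38 to 9.82. Myh7 varied less in del337TR hearts, with an SD of log2 signals of 0.28 treated and 0.15 untreated, where controls had 1.08 and 0.93. A difference between the groups in these r was not tested. Without the treated controls r with Myh7 was -0.48 for Thrsp (permutation p = 0.108) and -0.44 for Hr (p = 0.153), and r with Nppa was -0.04 for Thrsp (p = 0.877) and -0.23 for Hr (p = 0.329). The relation of Thrsp to Nppa thus rested on the treated controls, where r was -0.89, while it stood at -0.27 in treated del337TR hearts, 0.30 in untreated del337TR hearts and 0.11 in untreated controls. Klf9 stood at -0.14 with Myh7 and at 0.49 with the alpha myosin heavy chain Myh6 (permutation p = 0.00857, adjusted p = 0.0523, rho = 0.48), and at 0.34 with Myh6 without the 2 farthest arrays. The adipocyte score stood at 0.18 with Thrsp, 0.25 with Hr and 0.25 with Klf9, and a score of 6 skin and hair follicle markers at 0.06, -0.08 and 0.31. The atrial score of Myl4, Myl7 and Sln stood at 0.10, -0.06 and -0.07. The actin ratio above and the adipocyte score were each used as a covariate in the relations between the genes. With the adipocyte score no pair of genes turned sign, lost a call or gained one. Whether the other measures had a part in these relations was not tested.

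**Figure D4:**
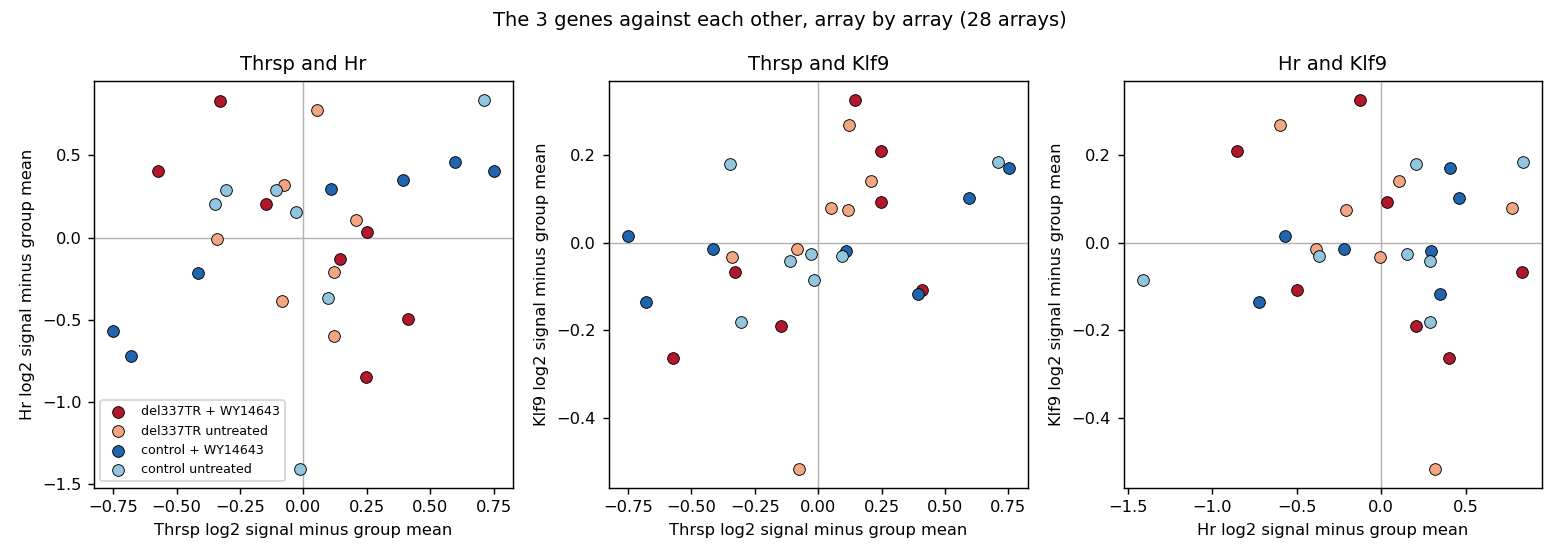
Deviations of log2 signals from the group mean, 1 point per array and 28 in all, for the 3 pairs of genes, coloured by group. Treated controls run along a rising line for Thrsp and Hr (r = 0.96) and treated del337TR hearts along a falling one (r = -0.80), whereas Thrsp and Klf9 rise together over all groups (r = 0.42).

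Other genes were ranked by how closely their deviations followed those of each gene over the 28 arrays, among 13324 genes above the 40th percentile of signal and as a description without a test. Nearest to Thrsp were Mal, a myelin and lymphocyte protein (r = 0.87), Coq10a, a coenzyme Q binding protein (0.84), Ptpn11, a tyrosine phosphatase (0.83), Abhd1 (0.82), Agtpbp1 (0.81) and Pigq (0.81). Farthest were Gcnt1, a glycosyltransferase (-0.90), Tceal8 (-0.87) and Afmid (-0.84). Klf9 was only number 1002 on the list of Thrsp. Without the treated controls the values of Mal and Gcnt1 were 0.72 and -0.82, and Thrsp had 221 genes with r over 0.6 in all.

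Klf9 had 56 such genes, led by the kinase Pim3 (0.80), Tcap, a titin-binding protein of the sarcomere (0.77), Mrpl48 of the mitochondrial ribosome (0.74), Dek (0.74), Epc1 (0.72) and Bnip3 (0.70). Rbpms (-0.79), Tmod3 (-0.73) and the transcription factor Prox1 (-0.73) ran opposite to it. Hr had 22, led by Acsl6, a long-chain acyl-CoA synthetase (0.72), Mtr, methionine synthase (0.69), Fmnl1 (0.67), BC025920 (0.67), Gm2102 (0.66) and Shld1 (0.65). Osbpl5 (-0.75), Gramd1a (-0.71) and Ank3 (-0.70) ran opposite to Hr. All these values come from the same 28 arrays and share their signal scale and RNA quality.

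Correlations of the 3 genes with pathway genes were read list by list, as a description without a test. Klf9 went with genes that glucocorticoids induce, as all 14 members of that list correlated positively with it, with a median r of 0.50 and a range from 0.30 for Dusp1 to 0.64 for Cdkn1a. Over all 18192 genes the median r with Klf9 was 0.01, and 51.3% were positive. Zbtb16, a zinc finger gene that responds strongly to glucocorticoids, stood at 0.60, and Fkbp5, a chaperone of the glucocorticoid receptor, at 0.49. Klf15, the Krüppel-like factor best known as a glucocorticoid target in muscle and heart, had the highest r with Klf9 in its family at 0.60. The median was 0.53 without the treated controls and 0.54 with the actin ratio removed. With Thrsp the same 14 genes had a median r of 0.07, and with Hr -0.16.

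Thrsp in turn had a median r of 0.37 with 17 measured genes that thyroid hormone induces, 15 of them positive, and of -0.47 with 8 genes that it represses, 2 of them positive. The highest were Ucp3, the muscle uncoupling protein (0.77), Hcn2, a pacemaker channel (0.68), and Ryr2, the calcium release channel (0.66), and the lowest Myh7 (-0.72). Without the treated controls these medians were 0.19 and -0.23, and with the actin ratio removed 0.20 and -0.33. Hr had medians of 0.17 and -0.28 with the lists, and Klf9 of 0.15 and -0.14. Over all 18192 genes the median r was 0.01 with Thrsp and -0.01 with Hr, and 51.1% and 48.4% were positive. Cardiomyocyte markers went with Klf9 (median r 0.42, 8 of 8 positive) more than with Thrsp (0.24) or Hr (-0.08), as values without a test. Endothelial markers ran opposite to Klf9 (median -0.40, 1 of 8 positive), and 18 lipogenesis genes stood at medians of 0.17 with Thrsp, 0.09 with Hr and 0.02 with Klf9. The glucocorticoid, thyroid hormone and marker lists were written from general knowledge of the genes.

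**Figure D5:**
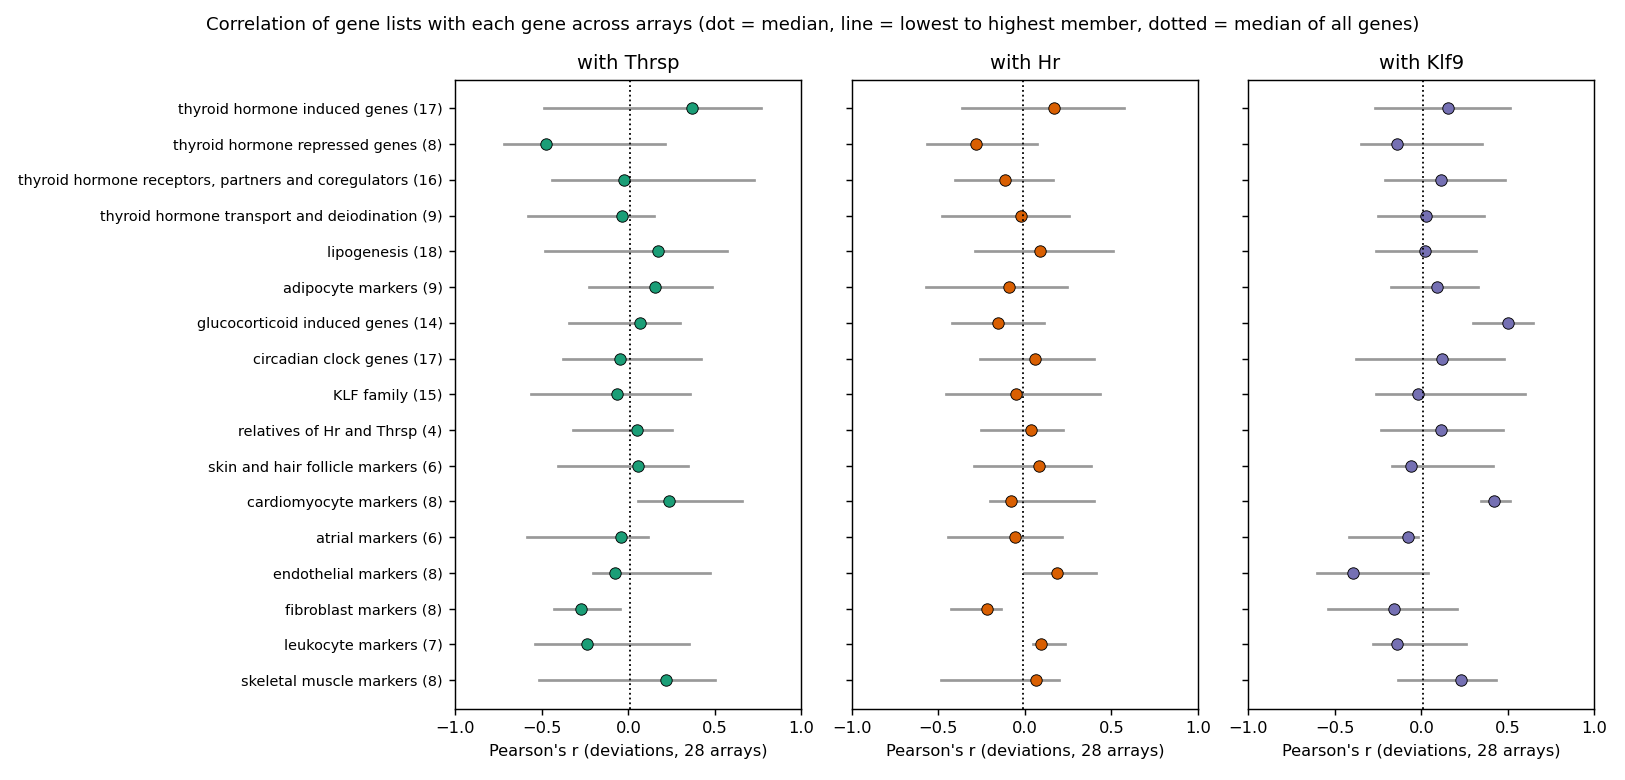
Pearson's r over 28 arrays (group means removed) of the members of 17 gene lists with Thrsp, Hr and Klf9, with a dot for the median, a line from the lowest to the highest member, the number measured in brackets and a dotted line at the median of all genes. Glucocorticoid induced genes lie wholly above 0 with Klf9 (median 0.50), and thyroid hormone induced and repressed genes lie apart with Thrsp (medians 0.37 and -0.47).

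Other genes of the thyroid hormone pathway gave no call either. Of 17 induced genes 0 passed limma's test in any of the 5 comparisons. Under WY14643, del337TR minus control, 6 of the 17 had an unadjusted p under 0.05 and all were lower in del337TR, where 8.86% of all probe sets stood in either direction and 3.61% lower. Among them were Gpd2, the mitochondrial glycerol phosphate dehydrogenase (-0.56 ± 0.15 (SE), limma adjusted p = 0.403), and Ucp3 (-0.87 ± 0.28, limma adjusted p = 0.428). Of the whole induced list 8 stood higher and 9 lower in del337TR. The list median was -0.09, with 0.02 over all 18193 genes. Of the 8 repressed genes all 8 stood higher in del337TR there, where 53.6% of all genes did, with a median of 0.14. Of the 8, 2 had an unadjusted p under 0.05, where 5.25% of all probe sets stood higher, which were Myh7 (1.14 ± 0.38) and Acta1, skeletal actin (0.45 ± 0.19). In controls, WY14643 gave 3 of 17 induced genes an unadjusted p under 0.05, all higher, where 6.75% of all probe sets stood in either direction and 2.39% higher. These were Gpd2 (0.35 ± 0.15), Myh6 (0.22 ± 0.11) and Ryr2 (0.20 ± 0.10). Without WY14643 1 of 17 had such a p, where 4.01% of all probe sets did, which was Dio1, a deiodinase that activates thyroid hormone, at -0.90 ± 0.40 in del337TR.

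Genes of hormone transport and deiodination had 9 of 11 members measured, and 4 of the 9 had an unadjusted p under 0.05 for WY14643 in controls, where 6.75% of all probe sets did. Slco1c1, a thyroxine transporter, stood at 1.98 ± 0.50 (SE, limma adjusted p = 0.628) and Slc7a8, an amino acid transporter that carries the hormone, at -0.53 ± 0.15 (limma adjusted p = 0.628). Crym, a binding protein of the hormone in the cytosol, stood at -1.20 ± 0.55, and Ttr, its carrier in plasma, at -1.72 ± 0.69. Of 16 receptors, partners and coregulators 0 had an unadjusted p under 0.05 by their brightest probe set in any comparison. The other probe sets of Thra, thyroid hormone receptor alpha, which are dimmer, stood at -0.44 ± 0.16 and -0.48 ± 0.22 for WY14643 in controls (limma adjusted p = 0.698 and 0.735), and at -0.25 ± 0.16 and -0.51 ± 0.22 for WY14643 in del337TR (limma adjusted p = 0.901 and 0.844). The relatives Kdm3a, Kdm3b and Jmjd1c of Hr and Mid1ip1 of Thrsp also had 0 of 4 with such a p in any comparison. In none of the 17 lists did a member pass limma's adjusted test in any of the 5 comparisons. Ppara, the gene of PPARalpha, was read apart from the lists. For WY14643 in del337TR its probe sets stood at -0.47 ± 0.15, -0.49 ± 0.18 and -0.43 ± 0.20. Unadjusted limma p-values were 0.00446, 0.0104 and 0.0436, where 5.78% of all probe sets stood under 0.05, and adjusted ones were 0.767, 0.783 and 0.853. For WY14643 in controls they stood at -0.22 ± 0.15, -0.23 ± 0.18 and -0.32 ± 0.20.

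Promoter sequences are shown for Thrsp and Klf9, to set beside their correlation, from RefSeq on GRCm38.p6, where 2 of the 3 genes were matched. Each run holds the 250 bases before the gene's start, 5′ to 3′ on the strand of the gene, at chr7:97417551-97417800 (minus strand) for Thrsp and chr19:23140976-23141225 (plus strand) for Klf9. Capitals mark CCAAT, the box that factor NF-Y binds, on either strand.
Thrsp: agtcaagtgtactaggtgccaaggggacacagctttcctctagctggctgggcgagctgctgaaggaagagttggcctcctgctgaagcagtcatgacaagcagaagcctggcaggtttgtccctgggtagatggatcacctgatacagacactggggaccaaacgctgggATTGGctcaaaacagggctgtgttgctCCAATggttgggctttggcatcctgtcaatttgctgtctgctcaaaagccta
Klf9: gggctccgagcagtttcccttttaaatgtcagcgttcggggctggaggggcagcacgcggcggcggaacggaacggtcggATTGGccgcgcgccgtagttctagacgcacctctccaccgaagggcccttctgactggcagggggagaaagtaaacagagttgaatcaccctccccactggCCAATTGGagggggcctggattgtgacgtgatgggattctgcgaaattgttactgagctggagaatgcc

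The motifs were searched on both strands in the window from 250 bases before to 50 after the start. AGGTCA, the hexamer of thyroid hormone receptors and many other nuclear receptors, AGAACA, the hexamer of the glucocorticoid receptor, and CACGTG, the E-box, were in neither window. Of 32851 promoter windows of 300 bases 16.3%, 19% and 7.15% held them. CCAAT occurred 2 times for Thrsp, beginning at -79 and -52, and 3 times for Klf9, beginning at -170, -69 and -66, with the last pair overlapping on opposite strands. It was held by 37.4% of all windows and was added to the search after the sequences had been read. These are matches of letters and no binding was measured.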

How the data were processed

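The deposited values were linear intensity signals for each probe set of each array. The submitters' processing notes name RMA, without a version, but the values had a mean of 250 on every array after 2% was trimmed at each end, and were taken as globally scaled signals. The sources used here give neither software for such signals nor a batch. Of 45101 probe sets, 64 array controls were left out. Genes were named by a platform annotation, from probe sets with 1 symbol, and stood by the one with the highest mean log2 signal.

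Signals were floored at 0.1, which touched 3 values at 0, and log2 transformed. Group means were fitted with limma 3.58.1 in R 4.3.3 (24 residual degrees of freedom, eBayes, two-sided) and Benjamini-Hochberg adjustment ran over 45037 probe sets, with a threshold of 0.05. Correlations used scipy 1.17.1 with 100000 permutations within groups, or exact permutation within a group. The scripts were tested on simulated data. The number of arrays limits the precision.

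The members, tests and 17 gene lists were chosen with earlier results of these data known, and lists came from general knowledge. List genes without a 1-symbol probe set were not analysed here. Genes were named by rule, as every probe set of the 3 genes, the 6 most and 3 least alike genes of each, and up to 3 members with the smallest p per list and comparison. Other list members given for their correlation were chosen after their values were seen. The adipocyte score was planned on 5 genes, of which Adipoq, Retn and Cidec had a 1-symbol probe set.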

Additional observations from a re-analysis of the deposited data

Results flagged for a closer look

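In 6 of 48 groups of 7 arrays, each tested for every probe set of the 3 genes on the log2 scale, 1 array stood apart from the others by more than Dixon's 95% critical value allows. Chance flags about 1 in 20 groups. Untreated control replicate 7 had the highest Thrsp signal of its group, 1383.6 on 1424737_at, and the highest Klf9 signal on 1456341_a_at, 1778.5. The Thrsp value took part in the relation of Thrsp to Klf9, which stood at r = 0.37 without that array. Treated control replicate 4 had the lowest Hr signal of its group on 1422110_at, 41.6, while its signal on the other Hr probe set was 186.8, the second highest of the group. Untreated del337TR replicate 6 had the lowest Klf9 signal on 1428288_at, 3022.3, and without it Klf9 in untreated del337TR minus control hearts stood at 0.23 in place of 0.14. On dimmer Klf9 probe sets, untreated control replicate 4 was highest on 1436763_a_at with 300.9, and treated del337TR replicate 1 was lowest on 1452723_at with 24.5.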

How the results depend on the processing

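Of 908 recomputed values, 875 kept their direction and their side of the threshold, 23 turned sign, 9 lost a call and 1 gained one. In limma's test 0 of the 12 probe sets passed under any alternative that was run, with each array left out included. Hr in untreated del337TR minus control hearts, near 0 throughout, was 0.073 with array weights, 0.0020 with each array centred on its median and 0.33 as the mean of its probe sets, and ranged from -0.25 to 0.12 with each array left out. With the adipocyte score as a covariate, WY14643 in del337TR gave 0.024 for Thrsp, 0.15 for Hr and 0.046 for Klf9. As a mean of its probe sets Thrsp stood at -0.043 for WY14643 in controls, at 0.32 in del337TR and at 0.36 for the difference of these effects, because this mean includes the dim probe set of opposite sign, and Klf9 stood at 0.072 for WY14643 in del337TR. The relation of Thrsp to Klf9 lost its call with the mean of the probe sets (r = 0.34), the replicate block (0.40), and, in alternatives chosen after seeing the data, without the treated controls (0.47), without the 2 farthest arrays (0.34) and with the actin ratio as a covariate (0.24), and it ranged from 0.35 to 0.50 with each array left out. Fewer arrays or degrees of freedom are part of some of these, and otherwise the cause was not tested. Hr with Klf9 stood at 0.089 with the mean of the probe sets, at 0.16 with the replicate block and at 0.16 with no group means removed, and ranged from -0.17 to 0.00023 with each array left out. Thrsp with Hr stood at 0.46 with no group means removed, where the group differences enter and the call was gained (adjusted permutation p = 0.0204), and at -0.18 without the treated controls. The replicate block, which removes each number's mean, changed no other call. The replicate numbers were not taken as pairs, since 1 of 42 same-numbered pairs of arrays correlated over 0.1, with a mean r of 0.023 against -0.0037 for other numbers. As a hint of shared numbers from the data and not the design, 13 of 28 arrays matched best with an array of their own number in other groups, where 4 would if all candidates were alike. Signals near the array medians limit what can be said of Hr and of the dimmest Thrsp and Klf9 probe sets.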
